A study of Mus musculus with 6 samples.

Results

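Tnfaip2 belongs to a small family of genes related to Exoc3, whose other mouse members are Exoc3l, Exoc3l2 and Exoc3l4. The members were looked up by symbol in a table of counts for 52636 genes, and all 5 of 5 were found. The samples are embryoid bodies (EBs), aggregates in which mouse embryonic stem cells of the line E14 begin to form the germ layers. RNA was sequenced from 3 EB samples of the parental WT line and from 3 of a Tnfaip2-/- line, which is 1 clone made by Cas9 editing. Both groups spent 3 days in hanging drops and then 3 days in differentiation conditions, and the labels give 300 cells for each drop of 30 µl, whereas the study's methods give other values for both. The comparison asks whether the RNA of a paralogue is at another level where Tnfaip2 is disrupted, as a gene that stands in for it may be. Whether a paralogue does stand in for Tnfaip2 was not tested. The samples held between 21765931 and 23804489 counts. Each genotype is 1 line, so effects of the edit and of the clone cannot be told apart. The p-values measure the spread between replicate samples of a line.

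Markers of pluripotent cells were present in both groups, and the primitive streak marker T was abundant in WT EBs but near 0 in Tnfaip2-/- EBs. The pluripotency factor Pou5f1 stood at 760 ± 9.63 CPM (counts scaled to a common library size; SD, n = 3) in WT EBs and at 419 ± 5.97 CPM in Tnfaip2-/- EBs, whereas Nanog, another such factor, went from 258 ± 8.96 to 310 ± 7.38 CPM. T, a transcription factor of the primitive streak, had 774, 732 and 866 counts in the WT samples and 5, 3 and 1 in the Tnfaip2-/- samples. All 3 genes thus differed between the groups, and differences in cell state accompany every comparison described here.

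Exoc3, known in yeast as Sec6, is a subunit of the exocyst, the complex that tethers secretory vesicles to the plasma membrane before they fuse with it. The other members share the Sec6-like region. Tnfaip2, also called M-Sec, is induced by tumour necrosis factor (TNF) and takes part in forming tunnelling nanotubes, thin membrane bridges between cells, together with the small GTPase RalA and the exocyst. Exoc3l binds exocyst subunits, and Exoc3l2 is known from sprouting endothelial cells. Exoc3l4 is the least studied of the family.

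Tnfaip2 (ENSMUSG00000021281) lies at chr12:111442469-111455018 on the forward strand of GRCm38. The guide RNA of the study was found in the annotated transcripts of 1 gene, Tnfaip2, and in 6 of its 11 transcripts. Its site is chr12:111445173-111445192, in exon 2, which extends over chr12:111444929-111445283 and holds the start codon at position 111444944. The coding sequence around the site, chr12:111445113-111445252 on the forward strand, is shown because it is what the edit was aimed at. Capitals mark the 20 bases of the guide and the 3 bases of the protospacer adjacent motif that Cas9 needs beside its target.
Tnfaip2 exon 2: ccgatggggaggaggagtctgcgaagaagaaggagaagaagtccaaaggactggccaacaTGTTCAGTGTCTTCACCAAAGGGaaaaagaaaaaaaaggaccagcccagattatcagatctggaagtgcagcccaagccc
The guide had no close match in the RNA of the paralogues. Among their sites followed by NGG, on either strand of the annotated transcripts, the nearest had 8 mismatches of 20 bases in Exoc3, 9 in Exoc3l, 7 in Exoc3l2 and 9 in Exoc3l4. Sequence outside annotated transcripts was not searched, and the edited allele cannot be read from counts per gene.

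The members are also distinct enough for their reads to be told apart. None of the 10 pairs of members shared a stretch of 51 bases, the read length, in their annotated transcripts (0 pairs). Antisense genes overlap some of them, and the library kit does not mark strand. The antisense gene Gm20163 covers 531 exon bases of Exoc3l (14.4%), and it had 7, 6 and 6 counts in WT EBs and 11, 7 and 1 in Tnfaip2-/- EBs. Gm10425 covers 888 exon bases of Exoc3l4 (15.7%) with 0 to 3 counts per sample, and Gm40578 covers 314 of Tnfaip2 (6.30%) with 0 or 1 count. Reads from these shared stretches cannot be assigned to one strand.

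Tnfaip2 itself was close to the limit of detection in both genotypes. It had 7, 4 and 7 counts in the WT samples and 0, 2 and 2 in the Tnfaip2-/- samples. Every WT sample was above every Tnfaip2-/- sample, with 18 counts in all against 4. Per count sequenced, Tnfaip2 was 4.30 times as frequent in WT EBs, with a 95% counting interval (exact binomial) from 1.42 to 17.5. A two-sided exact permutation test of the CPM values gave p = 0.1, the smallest that 3 against 3 samples allow. None of the samples reached the 0.445 CPM that edgeR's expression filter asks for. The gene was therefore tested in a fit without that filter, with p adjusted over 30163 genes. There its log2 fold change was -2.05 (SE 0.695, 95% interval -3.45 to -0.65, adjusted p = 0.0133 in edgeR's quasi-likelihood test). The call did not hold with DESeq2 (adjusted p = 0.0933), without WT replicate 1 (adjusted p = 0.0577), without WT replicate 3 (adjusted p = 0.0594) or without Tnfaip2-/- replicate 1 (adjusted p = 0.0708). Over the alternatives that kept the gene the adjusted p ranged from 0.0138 to 0.0933. In whole EBs, fewer cells that transcribe a gene and less RNA per cell cannot be told apart.

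Exoc3, the exocyst subunit of the family, was the most abundant member and stood at the same level in both genotypes. The gene (ENSMUSG00000034152) lies at chr13:74169488-74208732 on the reverse strand. It had 1071, 1078 and 1108 counts in WT EBs, which is 47.3, 48.1 and 47.2 CPM. The Tnfaip2-/- samples had 1095, 1006 and 1075 counts, which is 48.2, 45.9 and 48.5 CPM. The groups overlapped, with means of 47.5 ± 0.542 and 47.5 ± 1.39 CPM (SD, n = 3). The log2 fold change was 0.00 (SE 0.0418, adjusted p = 0.988 in edgeR's quasi-likelihood test). Its 95% interval ran from -0.08 to 0.08, that is from -5.61% to 6.06% of the WT level, and its sign changed with the normalization. Of the 17849 genes tested, 30 had a smaller log2 fold change in size than Exoc3 and 17818 a larger one.

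Exoc3l was lower in every Tnfaip2-/- sample than in any WT sample. The gene (ENSMUSG00000043251) lies at chr8:105289924-105296101 on the reverse strand. Its counts were 298, 309 and 317 in WT EBs and 246, 187 and 207 in Tnfaip2-/- EBs. The WT samples lay close together at 13.1, 13.8 and 13.5 CPM. The Tnfaip2-/- samples were wider apart at 10.8, 8.54 and 9.33 CPM, with replicate 1 nearest to WT. The mean fell from 13.5 ± 0.326 to 9.57 ± 1.16 CPM (SD, n = 3). The log2 fold change was -0.49 (SE 0.0806, 95% interval -0.65 to -0.33, adjusted p = 6.74e-07 in edgeR's quasi-likelihood test), a change of -28.9%. Of all genes tested, 31.2% changed by more than this on the log2 scale, in either direction.

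Exoc3l2 was higher in every Tnfaip2-/- sample than in any WT sample. The gene (ENSMUSG00000011263) lies at chr7:19463331-19496762 on the forward strand. Its counts were low, with 13, 23 and 13 in WT EBs and 46, 37 and 30 in Tnfaip2-/- EBs. These are 0.574, 1.03 and 0.553 CPM in WT and 2.02, 1.69 and 1.35 CPM in Tnfaip2-/- EBs. All 6 samples were above the level that the filter asks for, and WT replicate 2 was the nearest to the Tnfaip2-/- samples. The mean rose from 0.718 ± 0.268 to 1.69 ± 0.336 CPM (SD, n = 3). The log2 fold change was 1.24 (SE 0.249, adjusted p = 2.59e-05 in edgeR's quasi-likelihood test), which is 2.36-fold with a 95% interval from 1.66-fold to 3.33-fold. Larger changes, in either direction, were seen for 8.57% of the genes tested.

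Exoc3l4 (ENSMUSG00000021280) is the neighbour of Tnfaip2, at chr12:111417017-111431678 on the same strand. It ends 10790 bases before Tnfaip2 begins, and no annotated gene lies wholly between them. It had 1, 1 and 2 counts in WT EBs and 1, 3 and 3 counts in Tnfaip2-/- EBs. No sample was above the floor of 3 counts set for a fold change, so none is given. The groups overlapped, and the gene was not called in the fit without filter (adjusted p = 0.484 in edgeR's quasi-likelihood test). With so few counts this does not show that the level was the same.

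**Figure D1:**
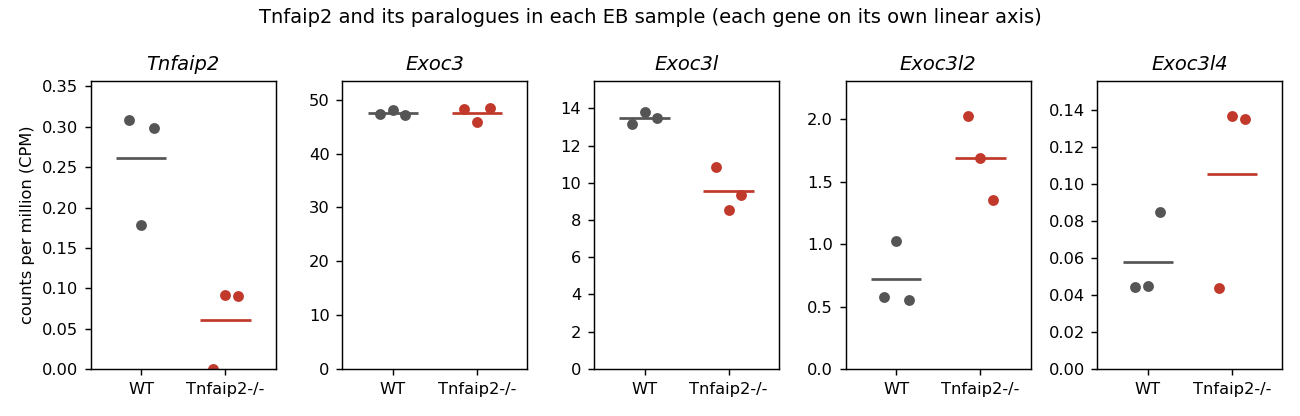
CPM of the 5 family members in 3 WT (grey) and 3 Tnfaip2-/- (red) EB samples, with a point for each sample and a line at the group mean, each gene on its own linear axis that starts at 0. Exoc3 lies near 47.5 CPM in both groups, the Exoc3l points are lower and the Exoc3l2 points higher in Tnfaip2-/- EBs, and Tnfaip2 and Exoc3l4 rest on 7 counts or fewer per sample.

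In all, 3 of the 5 members passed the expression filter, and 2 of these 3 were called at an adjusted p below 0.05, 1 higher (Exoc3l2) and 1 lower (Exoc3l). Across the whole table, 67.7% of the 17849 genes tested were called, 34.0% higher and 33.7% lower in Tnfaip2-/- EBs. The share of called members is therefore near that of any genes. The samples of the groups did not overlap for 2 of the 3 members, against 69.4% of all genes tested. Exoc3l2 was also called at a change of at least 2-fold, as were 12.0% of the genes tested.

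**Figure D2:**
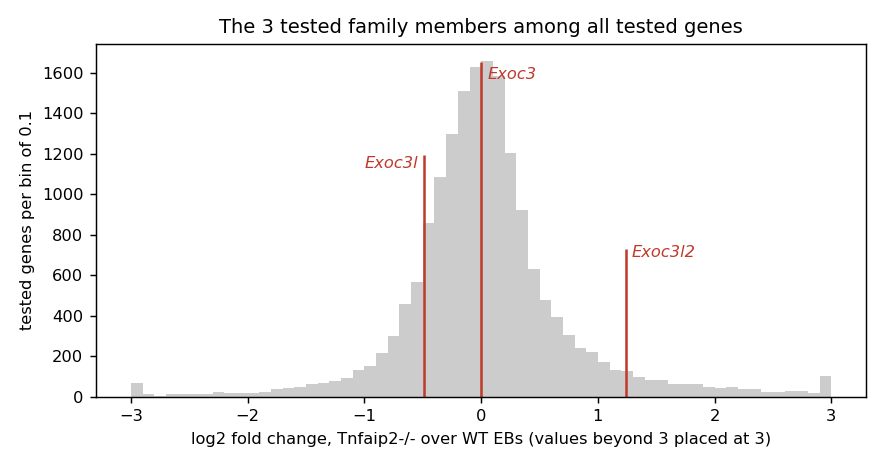
Histogram of the log2 fold change (Tnfaip2-/- over WT EBs) of all 17849 genes tested, in bins of 0.1, with red lines at the 3 family members that passed the filter and values beyond 3 placed at the ends. Exoc3 sits at the centre, Exoc3l at -0.49 and Exoc3l2 at 1.24.

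Levels of different genes were compared per kb of exon, from 3693 exon bases in Exoc3l to 6001 in Exoc3. In WT EBs the order was Exoc3 with 7.92 ± 0.0903 CPM per kb, Exoc3l with 3.65 ± 0.0882, Exoc3l2 with 0.179 ± 0.0667, Tnfaip2 with 0.0525 ± 0.0145 and Exoc3l4 with 0.0103 ± 0.00416 (SD, n = 3). No 2 neighbours in that order overlapped in any WT sample. In Tnfaip2-/- EBs Exoc3 had 7.92 ± 0.232 CPM per kb, Exoc3l 2.59 ± 0.315 and Exoc3l2 0.421 ± 0.0836. Exoc3l4, at 0.0187 ± 0.00941, and Tnfaip2, at 0.0121 ± 0.0105, did not differ beyond their spread there. In WT EBs, Tnfaip2 thus made up 0.446 ± 0.130% of the family's RNA on this scale, and Exoc3 67.1 ± 0.540%.

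**Figure D3:**
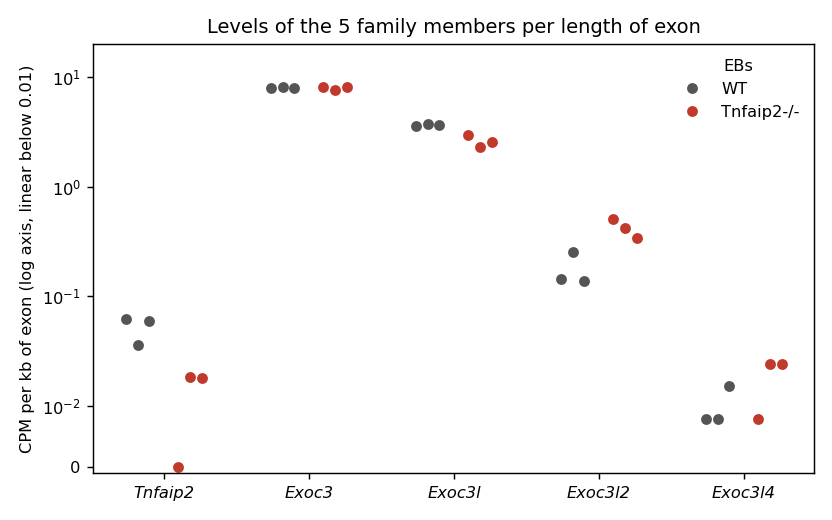
CPM per kb of exon of the 5 family members, with a point for each WT (grey) and Tnfaip2-/- (red) EB sample, on an axis that is logarithmic above 0.01 and linear below it. Exoc3 and Exoc3l lie above 2 CPM per kb in all 6 samples, Exoc3l2 between 0.138 and 0.504, and Tnfaip2 and Exoc3l4 below 0.07.

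The summed level of the 4 paralogues was not higher in Tnfaip2-/- EBs. It was 61.0, 63.0 and 61.3 CPM in WT EBs and 61.1, 56.3 and 59.3 CPM in Tnfaip2-/- EBs, and the groups overlapped. The means were 61.8 ± 1.08 and 58.9 ± 2.42 CPM (SD, n = 3), a difference of -2.88 CPM. It ranged from -4.06 CPM without Tnfaip2-/- replicate 1 to -1.55 CPM without Tnfaip2-/- replicate 2, and was -1.72 CPM with library size only. Per kb of exon the sums were 11.6, 12.0 and 11.7 in WT EBs and 11.5, 10.4 and 11.0 in Tnfaip2-/- EBs, a difference of -0.808 CPM per kb without overlap of the groups (-1.08 and -0.53 without the same replicates). Both differences were negative under each normalization tried and without any 1 of the samples. The gain in Exoc3l2 was 0.242 CPM per kb and the difference in Exoc3l -1.06 CPM per kb. The gain in Exoc3l2 was also larger than the whole WT level of Tnfaip2, which was 0.0525 CPM per kb. That level is below the expression filter, at 4 to 7 counts per sample, so even a small gain exceeds it. Whether Exoc3l2 stands in for Tnfaip2 was not tested. The ratio of Exoc3l2 to Exoc3l on this scale went from 0.0488 ± 0.0171 in WT to 0.162 ± 0.0257 in Tnfaip2-/- EBs, and Exoc3l remained the more abundant in each sample. These sums describe RNA, and levels of the proteins were not examined here. The study also measured proteins in EBs of both genotypes by mass spectrometry, and those data were not used.

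Most of the other exocyst subunits, the partners of Exoc3 in the complex, were called higher, whereas Exoc3 was not called. Of the 8 other subunits, all tested, 6 were called higher, 0 lower and 2 were not called, with a median log2 fold change of 0.27 beside 0.00 over all genes tested, of which 34.0% were called higher and 33.7% lower. Exoc4, which binds Exoc3 in the complex, had 68.7, 70.9 and 69.4 CPM in WT EBs and 110, 106 and 106 CPM in Tnfaip2-/- EBs. Its log2 fold change was 0.62 (SE 0.0339, adjusted p = 4.32e-21 in edgeR's quasi-likelihood test). Exoc6, a subunit that binds Rab GTPases on vesicles, had 14.3, 14.0 and 14.7 CPM in WT EBs and 22.7, 22.1 and 23.4 CPM in Tnfaip2-/- EBs. Its log2 fold change was 0.67 (SE 0.0621, adjusted p = 3.53e-13). The log2 fold changes of the other 4 called subunits were 0.36 for Exoc2, 0.30 for Exoc6b, 0.24 for Exoc7 and 0.17 for Exoc5. Neither Exoc8, at 0.11 (adjusted p = 0.0860), nor Exoc1, at -0.05 (adjusted p = 0.284), was called. Exoc8 was called higher with upper quartile scaling (adjusted p = 0.0363) and with library size only (adjusted p = 0.0327). Without WT replicate 1 its log2 fold change was 0.0375 (adjusted p = 0.619), and with DESeq2 it was 0.105 (adjusted p = 0.324).

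Exoc3 therefore took a smaller part of the subunits' RNA in Tnfaip2-/- EBs. Per kb of exon, Exoc3 was the highest of the 9 subunits in WT EBs and came after Exoc4 in Tnfaip2-/- EBs, at 7.92 ± 0.232 against 8.47 ± 0.170 CPM per kb (SD, n = 3). The exon length pools all annotated transcripts of a gene, and ran from 3543 bases in Exoc6 to 17988 in Exoc5. It was 6001 bases for Exoc3 and 12640 for Exoc4, so the order and the size of the shares depend on it. Without division by exon length, Exoc4 (mean 69.7 CPM) and Exoc5 (53.7 CPM) were already above Exoc3 (47.5 CPM) in WT EBs. The sum of the 9 subunits went from 40.9 ± 0.878 to 49.7 ± 0.768 CPM per kb. The share of Exoc3 in it was 19.7%, 19.3% and 19.1% in the WT samples and 16.0%, 15.7% and 16.2% in the Tnfaip2-/- samples, without overlap. The 95% intervals of the log2 fold change lay wholly above that of Exoc3 for 6 of the 8 other subunits and overlapped it for 2, Exoc1 and Exoc8. The difference between Exoc3 and each subunit was not tested itself.

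**Figure D4:**
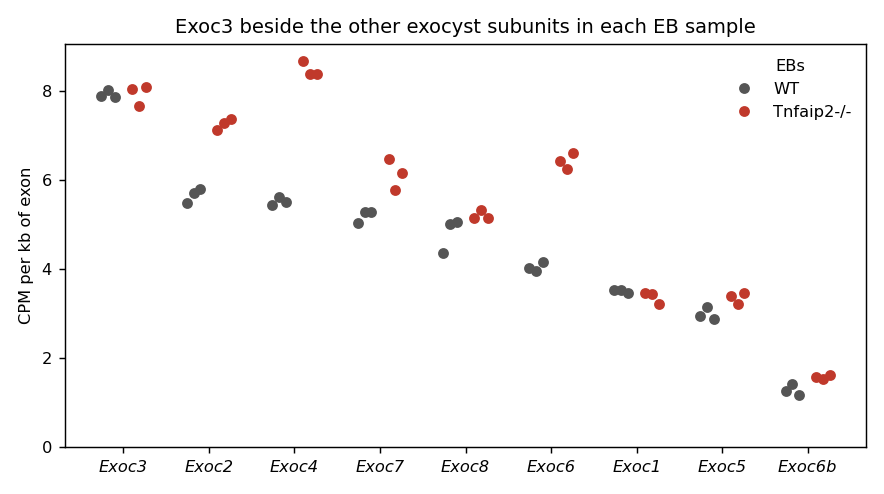
CPM per kb of exon of the 9 exocyst subunits, ordered by their mean in WT EBs, with a point for each WT (grey) and Tnfaip2-/- (red) sample on a linear axis that starts at 0. Exoc3 lies near 7.92 CPM per kb in both groups, while Exoc4 goes from 5.51 to 8.47 and Exoc6 from 4.04 to 6.42.

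Small GTPases recruit the exocyst or act through it, and those examined moved in both directions. All 9 were tested, with 4 called higher, 3 lower and 2 not called, and their median log2 fold change was -0.04. The lower call of Rab8a (log2 fold change -0.10) was lost with library size only (adjusted p = 0.0509, edgeR's quasi-likelihood test). It was also lost without Tnfaip2-/- replicate 1 (adjusted p = 0.0515). Rab10 was called lower in 5 of 14 alternatives and Cdc42 in 1 (no expression filter). These genes were named after their values were seen. Rala, the partner of Tnfaip2 in nanotube formation, had 54.7, 48.2 and 55.1 CPM in WT EBs and 83.4, 85.8 and 79.0 CPM in Tnfaip2-/- EBs. Its log2 fold change was 0.65 (SE 0.0417, adjusted p = 1.59e-18 in edgeR's quasi-likelihood test), and that of Rhoa, a regulator of the actin cytoskeleton, was 0.43. Arf6, which acts in membrane recycling at the cell surface, had the lowest value with -0.54, and Rhoq followed with -0.25.

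The SNAREs listed for fusion at the plasma membrane, the step after tethering, also split. Whether each of them acts at that membrane in EBs was not examined. All 7 were tested and called, 4 higher and 3 lower, with a median log2 fold change of 0.15. Vamp2 (0.65) and Snap29 (0.62) had the highest log2 fold changes. Stx3, a syntaxin of the plasma membrane, had 140, 145 and 145 CPM in WT EBs and 77.4, 77.6 and 83.1 CPM in Tnfaip2-/- EBs. Its log2 fold change was -0.86 (SE 0.0331, adjusted p = 8.56e-27). Vamp3 was next with -0.28. Between 6 and 7 of the SNAREs were called in the alternatives.

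**Figure D5:**
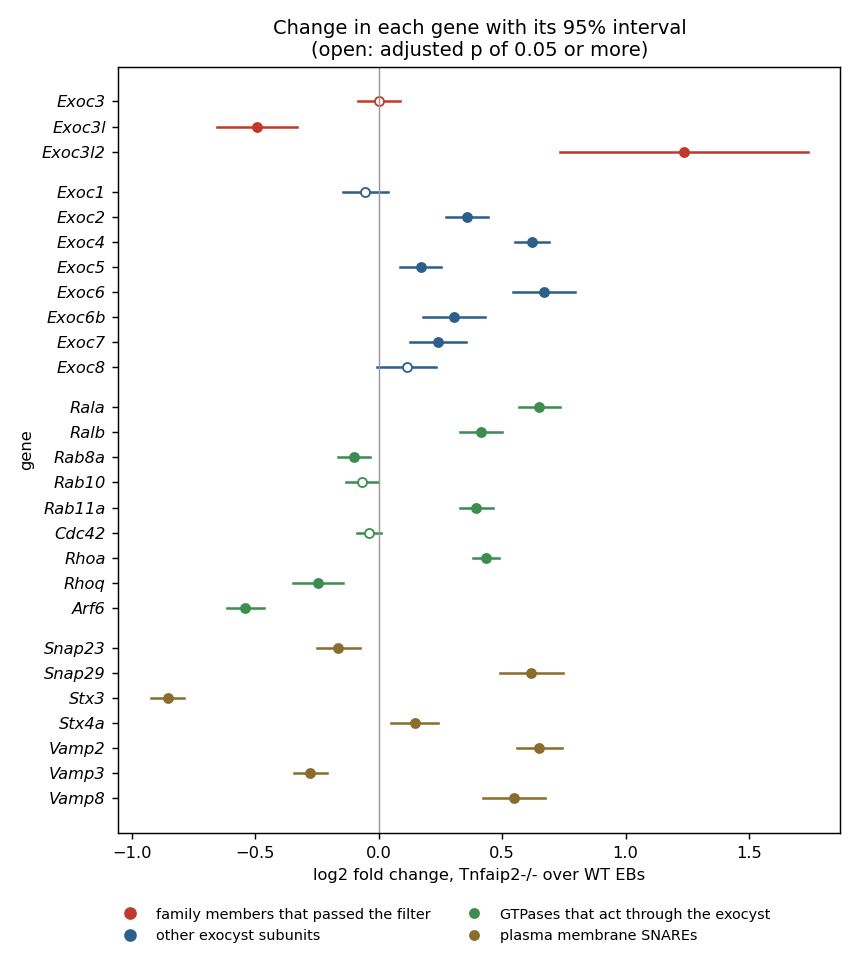
Log2 fold change (Tnfaip2-/- over WT EBs) with its 95% interval for the 3 family members that passed the filter, 8 other exocyst subunits, 9 GTPases and 7 SNAREs, where filled points have an adjusted p below 0.05. Exoc3, Exoc1 and Exoc8 are open points near 0, and Exoc3l2 has the widest interval of those drawn.

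Of 5 genes of tunnelling nanotubes and filopodia, the structures in which Tnfaip2 acts, 4 were tested and called, 1 higher and 3 lower, with a median log2 fold change of -0.48. Fscn1, which bundles actin in filopodia, went from 383 ± 14.5 to 249 ± 6.62 CPM (SD, n = 3). Its log2 fold change was -0.62 (SE 0.0274, adjusted p = 1.48e-24 in edgeR's quasi-likelihood test). The actin crosslinker Flna and the filopodial motor Myo10 both had -0.48. Eps8, an actin capping and bundling protein, was the one called higher, with 0.77. Lst1, a membrane protein that promotes nanotubes, was below the filter with 4, 7 and 5 counts in WT EBs and 0, 3 and 3 in Tnfaip2-/- EBs.

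Genes that respond to TNF and the transcription factor NF-kB, as Tnfaip2 does, did not move as one group. Of the 12, 10 were tested, with 6 called higher, 2 lower and 2 not called, and a median log2 fold change of 0.32. One of the 6, Tnfaip3 (log2 fold change 0.29, adjusted p = 0.0397), was chosen for mention after its values were seen, since its call was lost in 7 of 14 alternatives. These were no expression filter (adjusted p = 0.0777), DESeq2 (0.233), and the fits without WT replicate 1 (0.0698), 2 (0.0556) or 3 (0.138) or Tnfaip2-/- replicate 1 (0.120) or 3 (0.0896). Traf1, an adaptor of TNF receptors, had 16, 15 and 15 counts in WT EBs and 80, 70 and 72 in Tnfaip2-/- EBs. Its log2 fold change was 2.30 (SE 0.199, adjusted p = 4.26e-14 in edgeR's quasi-likelihood test), and that of the adhesion molecule Icam1 was 1.06. Nfkb1, a subunit of NF-kB, had 49.6, 50.5 and 49.5 CPM in WT EBs and 28.9, 26.9 and 27.6 CPM in Tnfaip2-/- EBs, and its log2 fold change was -0.84. Nfkbia, the inhibitor of NF-kB that NF-kB itself induces, had -0.68. The chemokine genes Cxcl1 and Ccl2 had at most 3 counts in any sample, which is the floor. With 67.7% of all genes called, none of these lists is set apart from the table by its number of calls alone.

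Some genes had profiles very like those of the members over the 6 samples. Likeness was the root mean square difference of log2(CPM + 0.5), each gene centred on its own mean, over the 15710 tested genes whose mean reached 1 CPM. Nearest to Exoc3 were Yeats2 (0.00664), Slc7a6os (0.00919) and Erbin (0.0129). Yeats2, a subunit of a histone acetyltransferase complex, had 83.2, 83.9 and 82.3 CPM in WT EBs and 83.8, 80.4 and 85.3 CPM in Tnfaip2-/- EBs. Nearest to Exoc3l were Gm8297 (0.0142), Lpar4 (0.0143) and Etfbkmt (0.0285). Lpar4, a receptor for lysophosphatidic acid, had 22.3, 23.5 and 23.1 CPM in WT EBs and 18.6, 14.8 and 16.5 CPM in Tnfaip2-/- EBs. Nearest to Exoc3l2 were Ddr2 (0.0688), Socs1 (0.0990) and Tunar (0.105). Ddr2, a collagen receptor, had 13, 22 and 13 counts in WT EBs and 46, 31 and 28 in Tnfaip2-/- EBs, so this likeness rests on few counts.

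Markers of cell types in which the family is known were examined beside these results. Over all genes tested, 34.0% were called higher and 33.7% lower. Exoc3l2 is known from endothelium, and 4 of 6 endothelial markers were tested, with 3 called higher and 1 lower. Their summed level was 28.3, 27.8 and 27.3 CPM in WT EBs and 33.9, 37.4 and 39.8 CPM in Tnfaip2-/- EBs, most of it from Pecam1, which embryonic stem cells also carry. Tek and Tie1, receptors of the angiopoietin system, had log2 fold changes of 0.81 and 1.23, whereas the VEGF receptor Kdr had -2.82. The defining endothelial markers Cdh5, with 3 to 10 counts per sample, and Emcn, with 0 to 2, were near 0. Tnfaip2 is known from myeloid cells, and of 6 markers of monocytes, macrophages and blood 1 passed the filter, Cd68, which was called higher. Their summed level was 6.001, 7.77 and 6.81 CPM in WT EBs and 8.32, 10.2 and 10.1 CPM in Tnfaip2-/- EBs, most of it from Cd68. The defining markers Ptprc, Adgre1 and Csf1r had 0 or 1 count in each sample. Below the filter, Spi1 had 4, 4 and 5 counts in WT EBs and 9, 22 and 14 in Tnfaip2-/- EBs (log2 fold change 1.78, adjusted p = 0.000413 in the fit without filter), and Itgam had 14, 10 and 8 against 6, 6 and 8 (-0.65, adjusted p = 0.207). The part of these cell types in the levels of Exoc3l2 and Tnfaip2 was not tested.

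Differentiation markers moved with the genotype as well. Of all genes tested, 67.7% were called, 34.0% higher and 33.7% lower, so a call alone does not set a marker apart. All 6 pluripotency markers were called, Klf2 (log2 fold change 0.98), Zfp42 (0.90), Nanog (0.26) and Sox2 (0.23) higher, and Pou5f1 (-0.86) and Esrrb (-0.48) lower. They had a summed level of 1928, 1914 and 1924 CPM in WT EBs and 1972, 1981 and 1992 CPM in Tnfaip2-/- EBs. All 5 markers of the primitive streak and mesoderm were called lower. Their summed level was 86.2, 86.0 and 85.1 CPM in WT EBs and 20.3, 17.8 and 21.1 CPM in Tnfaip2-/- EBs, with T the most abundant in WT EBs and Eomes in Tnfaip2-/- EBs. All 4 neural plate markers were also lower, from a sum of 107, 107 and 99.7 CPM to one of 46.6, 44.8 and 45.9 CPM. Of the 6 endoderm markers 1 was called higher and 3 lower. Of 5 fibroblast markers 3 passed the filter and 1 was called lower. Below the filter, Dcn had 8, 8 and 9 counts in WT EBs and 1, 0 and 0 in Tnfaip2-/- EBs (adjusted p = 2.48e-05 in the fit without filter), and Postn had 2, 2 and 4 against 0, 0 and 0 (adjusted p = 0.0113). Of 4 trophoblast markers 2 passed it, 1 called higher and 1 lower. The part of this difference in cell state in the changes of Exoc3l, Exoc3l2 and the exocyst subunits was not tested.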

How the data were processed

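RNA of 6 EB samples was sequenced with an unstranded kit. The authors mapped trimmed reads to GRCm38 with TopHat2 2.1.0 and counted uniquely mapped reads per gene with featureCounts 1.5.0. They deposited these raw counts without normalization, and the strand setting of the counting was not stated. Symbols were matched to 52403 of 52636 gene IDs. The family members and the gene lists were chosen with earlier results of these data known.

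Counts were analysed with edgeR 4.0.16 in R 4.3.3, using filterByExpr (minimum count 10), TMM factors, the robust quasi-likelihood F test in its newer form and Benjamini-Hochberg adjustment over 17849 genes at a threshold of 0.05. Genes under the filter have values from a fit without it, with its own TMM factors and adjustment over 30163 genes. The test was checked on simulated counts. SEs come from the test statistic, and intervals cover 95%. CPM use TMM-scaled totals. Exon lengths and overlaps are from GENCODE M21, a later annotation than the one counted. Intervals from counts cover counting error only. Replicates of a genotype differed by 1.36 to 1.95 times the sampling noise, so no library was counted as a copy of another. Whether the replicates came from separate cultures cannot be told from this ratio.

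Named were the members, each list's 2 highest and 2 lowest log2 fold changes, every exocyst subunit, markers, and 3 genes nearest to each tested member. Alternatives were RLE, upper quartile or no scaling factors, no or a stricter filter, the legacy fit, DESeq2 1.42.0, a replicate block, each sample left out, and a pseudocount of 1 CPM for likeness.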

Additional observations from a re-analysis of the deposited data

How the results depend on the processing

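Exoc3l kept its lower level and its call in all 14 alternatives (log2 fold change -0.59 to -0.42, adjusted p at most 6.45e-05). Exoc3l2 kept its higher level and its call in all 14 (1.07 to 1.57, adjusted p at most 0.00273). Exoc3 was called in 0 of 14, and its log2 fold change near 0 changed sign with RLE factors (-0.00175), no expression filter (-0.0180), DESeq2 (-0.00782) and 4 of the 6 samples left out (-0.0228 to -0.0114); without WT replicate 2 or Tnfaip2-/- replicate 2 it stayed positive (up to 0.0253). These values are all smaller in size than the SE of 0.0418. For Tnfaip2 the log2 fold change was -2.13 with DESeq2 and -2.43 to -1.50 with a sample left out, with the calls lost that are named in the report; fewer samples entered the latter fits, and otherwise the cause was not tested. Tnfaip2 and Exoc3l4 have no value under the stricter filter, which removes them.

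The number of genes called ran from 10261 (DESeq2) to 12676 (no expression filter). Of the other exocyst subunits 6 to 7 were called, of the GTPases 6 to 9, and of the TNF and NF-kB responsive genes 7 to 8. Fibroblast markers had 3 calls with no expression filter and 2 with DESeq2, against 1 reported. Blood markers had 2 calls in place of 1 with either of these and without WT replicate 1, 2 or 3 or Tnfaip2-/- replicate 1, the added one being Spi1. Each other list stayed within 1.5 times its reported number. Among 58 single pathway and marker genes, 51 kept direction and side of the threshold in every alternative that gave them a value (12 for Cdh5, Itgam, Lst1 and Spi1, 13 for Mesp1 and Tie1, 14 for the others), and 0 changed direction. With the pseudocount of 1 CPM, 3 of 3 nearest genes were found again for Exoc3, 2 of 3 for Exoc3l and 2 of 3 for Exoc3l2.

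Same-numbered samples did not deviate together: the correlation of their deviations from the group means was -0.0430 on average. The value for differently numbered samples, 0.0215, is no separate reference. It is tied to the first, because deviations from a group mean sum to 0. A replicate block in the model left 11841 genes called, and the log2 fold changes were -2.05 for Tnfaip2, 0.00 for Exoc3, -0.49 for Exoc3l and 1.23 for Exoc3l2, with no call of a member or a list's count changed. Depth limits Tnfaip2 and Exoc3l4, which have 7 counts or fewer per sample.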
